A study of Mus musculus with 15 samples.

Results

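The mesothelium genes described here are 10 genes that mark the cell layer on the outer surface of the gut: Upk3b, Upk1b, Wt1, Lrrn4, Msln, Rspo1, Bnc1, Muc16, Aldh1a2 and Krt19. They were taken as a list of gene symbols and matched by Entrez ID. All 10 were found among the 36528 IDs counted in each library, and all 10 passed the filter on low counts that left 18370 genes to test. Krt19 and Aldh1a2 are also made by other cells of the gut wall, and their values are set apart from those of the other 8 where this bears on a result.

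RNA was sequenced from mouse small intestine on embryonic day E16.5, in 3 genotypes of 5 libraries each, 15 in all. All of them carried an Mlkl knockout and so lacked the effector of necroptosis. In Casp8, the gene of the apoptosis protease caspase-8, the first group was normal (called wildtype here in spite of its Mlkl knockout) and the second was a knockout (knockout). The last was a knockin of C362A, a change of the active-site cysteine to alanine (C362A). Tissue is labelled inflamed for all C362A libraries and normal for the rest. The labels give no strain, sex or litter and do not say whether libraries of a genotype came from separate embryos, so that p-values measure the spread between these libraries, which may in part be technical.

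The mesothelium is a single sheet of flat cells of mesodermal origin that covers the gut and lines the body cavity. It has keratins and junctions like an epithelium, and in the embryo some of its cells leave the surface and contribute to fibroblasts and smooth muscle of the wall. In bulk RNA of whole intestine, fewer cells of a type and less RNA per cell cannot be told apart.

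Promoter sequence is shown for 3 members whose values recur below: Upk3b, the best measured member made mainly by mesothelium, and Bnc1 and Muc16, the pair whose levels were most alike across libraries. Each sequence is the 250 bases before the start site in the RefSeq table (GRCm38.p6), written 5′ to 3′ on the strand of the gene. The windows are chr5:136038246-136038495 on the plus strand for Upk3b, chr7:81992300-81992549 on the minus strand for Bnc1 and chr9:18674604-18674853 on the minus strand for Muc16. Capitals mark matches, on either strand, to GGAATG, the core bound by TEAD factors, or to GCGNGGGNG, a core shared by WT1 and EGR factors. The motifs did not overlap in these windows.
Upk3b: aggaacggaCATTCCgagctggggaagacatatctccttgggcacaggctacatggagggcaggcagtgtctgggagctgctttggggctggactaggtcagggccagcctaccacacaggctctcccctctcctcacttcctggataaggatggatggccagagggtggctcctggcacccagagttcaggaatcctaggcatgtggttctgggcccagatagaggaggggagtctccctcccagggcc
Bnc1: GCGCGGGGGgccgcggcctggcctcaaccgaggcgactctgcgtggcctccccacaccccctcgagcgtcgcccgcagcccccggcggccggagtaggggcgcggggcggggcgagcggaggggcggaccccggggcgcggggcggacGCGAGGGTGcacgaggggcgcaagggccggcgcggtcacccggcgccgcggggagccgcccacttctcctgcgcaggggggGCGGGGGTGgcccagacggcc
Muc16: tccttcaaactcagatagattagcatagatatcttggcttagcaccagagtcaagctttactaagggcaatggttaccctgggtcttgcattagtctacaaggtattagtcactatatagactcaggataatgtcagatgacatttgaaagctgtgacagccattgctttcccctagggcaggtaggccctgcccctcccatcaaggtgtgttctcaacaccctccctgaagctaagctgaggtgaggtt
The Upk3b window held 1 match to the TEAD core, in reverse complement, and none to the other motif. The Bnc1 window held 3 matches to the WT1 and EGR core, and the Muc16 window held none to either. Over 32851 promoters of the same length, 12.6% held the TEAD core and 10.5% the WT1 and EGR core. The Bnc1 window was 83.6% G and C, against a median of 52.4% over all promoters, 60.8% for Upk3b and 46.4% for Muc16. A match describes the letters only. The table held 6 of the 10 members, and the Muc16 start site it gives lies within the annotated span of that gene. The Bnc1 window overlapped 2 annotated exon or untranslated-region entries, counted on either strand, and the Upk3b and Muc16 windows overlapped 0. Part of the Bnc1 window is thus annotated as transcribed.

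Sequencing depth was even, with 31896399 to 38532127 counts per library. Casp8 was at 12.2 to 16.54 CPM (counts per 1000000 counts of the library, scaled by the TMM factors of edgeR, which correct for differences in library composition) in the 5 knockout libraries. It was at 62.3 to 77.5 CPM in wildtype and at 64.4 to 72.8 CPM in C362A. Gene counts do not show the C362A substitution itself. Mlkl lay between 0.187 and 0.839 CPM in all 15 libraries. Genes of other organs varied between libraries. The kidney genes Nphs1 and Umod were at 4.06 and 2.03 CPM in knockout replicate 5. The spleen gene Tlx1 was at 6.67 and 5.04 CPM in C362A replicates 3 and 4, and the squamous keratin gene Krt13 was at 53.1 CPM in C362A replicate 4, against at most 0.899 CPM elsewhere. The liver gene Alb ran from 11.9 to 586 CPM, highest in knockout replicate 3, and the pancreas gene Cpa1 from 0.965 to 28.1 CPM, highest in knockout replicate 4. The stomach gene Tff2 reached 6.47 CPM in wildtype replicate 4, against a median of 0.45 CPM. Gut epithelium genes were abundant in all libraries, with a summed level of 5984 to 8289 CPM over 10 genes.

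The members spanned a wide range of abundance. On the length-corrected scale (RPKM, which divides by transcript length and library size), Krt19, a keratin also abundant in gut epithelium, had the highest level, 393 ± 44.4 RPKM (SD, n = 15 libraries), above 99.4% of the genes tested. Upk3b, a uroplakin known as a mesothelium marker, was next at 44.9 ± 4.17 RPKM, above 90.6% of genes. Aldh1a2, the enzyme that makes retinoic acid in embryonic mesoderm, was at 33.2 ± 6.71 RPKM. Upk3b was above Aldh1a2 in 13 of 15 libraries, so their ranges touched, while Krt19 was above Upk3b in all 15.

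The other 7 members were near or below the middle of the transcriptome. Msln, the gene of the surface protein mesothelin, was at 8.16 ± 1.67 RPKM, above 58.1% of genes. Rspo1, a secreted amplifier of Wnt signalling, was at 4.998 ± 1.03 RPKM, Upk1b, a tetraspanin-like uroplakin, at 4.68 ± 1.05 RPKM and Lrrn4, a leucine-rich repeat membrane protein, at 3.99 ± 0.760 RPKM. These last 3 followed each other closely, with Rspo1 above Upk1b in 12 and Upk1b above Lrrn4 in 13 of 15 libraries. Wt1, a zinc-finger transcription factor of mesothelium, kidney and gonad, was at 2.86 ± 1.86 RPKM. Bnc1, a zinc-finger protein gene, was at 1.21 ± 0.362 RPKM, and Muc16, the membrane mucin that binds mesothelin, was the lowest at 0.324 ± 0.0881 RPKM. The Muc16 transcript is very long, and in unscaled terms it still gave 131 to 509 counts per library. Bnc1 gave the fewest counts, 111 to 359, and its exons overlap the pseudogene 4833418N17Rik on the other strand, whose reads cannot be told apart from those of Bnc1 with a kit that does not mark strand.

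**Figure D1:**
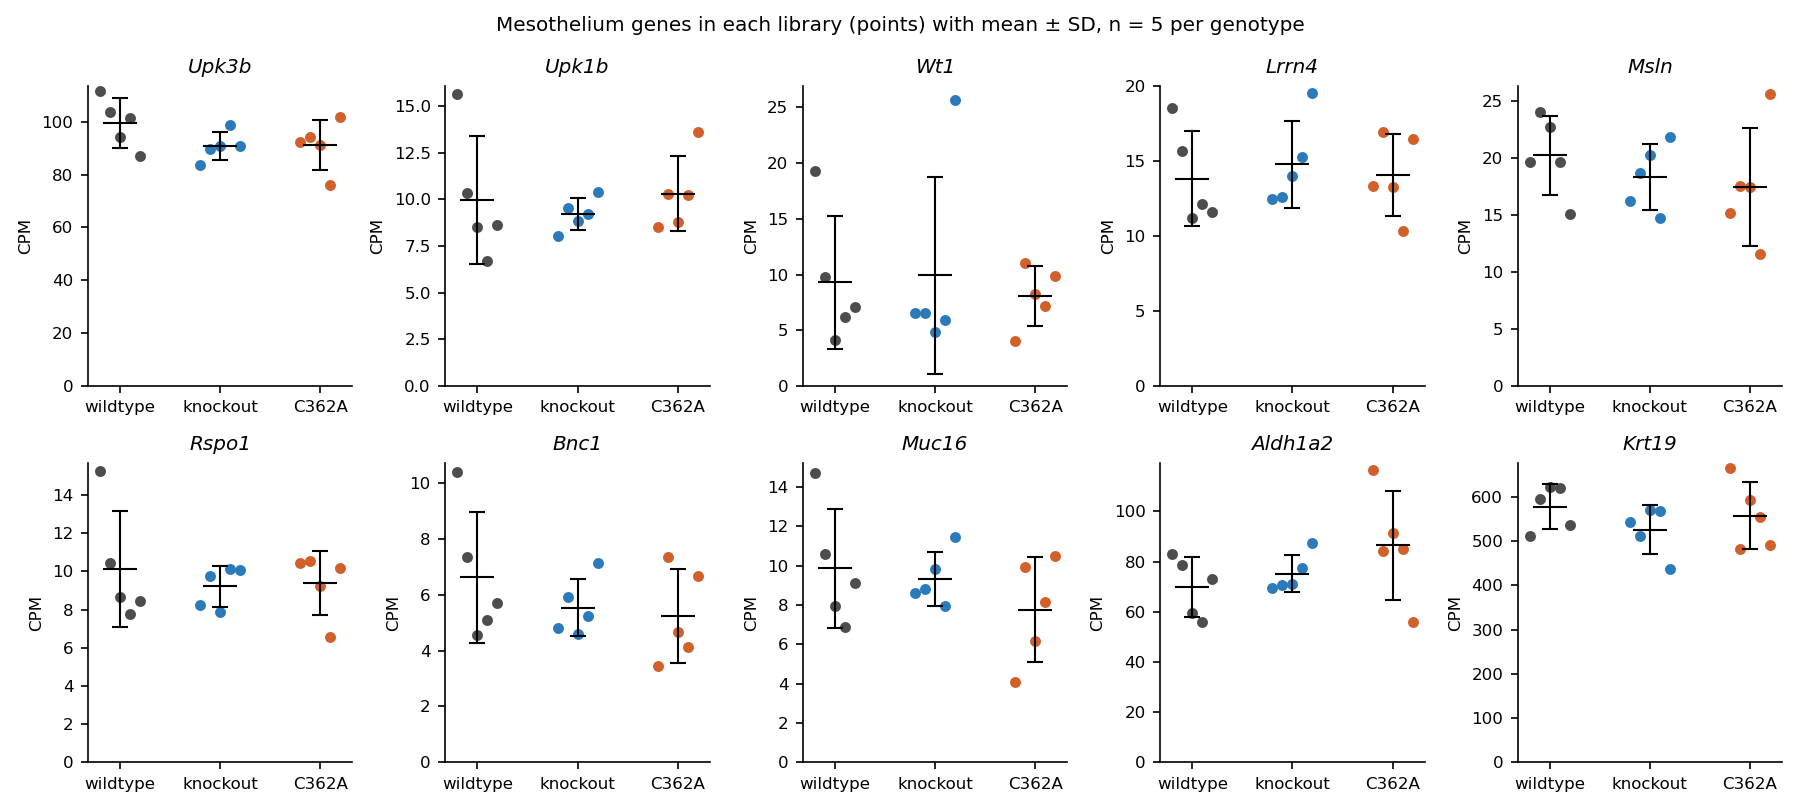
Level of each mesothelium gene in CPM (linear axis from 0) in the 5 libraries of each genotype, points in replicate order from left to right, with mean ± SD. The genotypes overlap for all 10 genes, wildtype replicate 1 is the highest library for 5 genes, and knockout replicate 5 stands at 25.7 CPM for Wt1. The share of all genes with such overlap was not computed.

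None of the 10 members differed detectably between C362A and wildtype. In edgeR's quasi-likelihood fit, with p-values adjusted by Benjamini-Hochberg over all 18370 genes, 0 of 10 members passed at an adjusted p under 0.05, where 0.0817% of all genes were called. At an unadjusted p under 0.05 the count was also 0 of 10, against 15.9% of all genes, and DESeq2 and limma-voom called 0 of 10. The median log2 fold change was −0.12 with 3 of 10 positive, against 0.01 over all genes. The ranges of the 5 and 5 libraries overlapped for every member. The share of all genes whose ranges overlap was not computed, so this overlap says nothing particular about the members.

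The uroplakin Upk3b gave the narrowest bound. It was at 92.5, 94.1, 91.4, 76.05 and 102 CPM in C362A replicates 1 to 5, and at 112, 104, 94.3, 101 and 87.05 CPM in the wildtype replicates. In the knockout libraries it was at 83.7, 89.7, 91.0, 98.8 and 90.9 CPM. The 3 groups overlapped, with the highest library in wildtype and the lowest in C362A. The log2 fold change for C362A against wildtype was −0.13 (SE 0.08, 95% confidence interval −0.30 to 0.04, edgeR adjusted p = 0.417), whose lower bound is 0.813 times the wildtype level. It was −0.07 without C362A replicate 4. Upk1b averaged 9.95 ± 3.41 CPM in wildtype, 9.19 ± 0.858 CPM in knockout and 10.3 ± 2.02 CPM in C362A (SD, n = 5 each). Its wildtype spread came mainly from replicate 1, at 15.6 CPM against 6.70 to 10.3 CPM in the others.

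Msln and Muc16, the 2 members whose proteins bind each other, both had negative log2 fold changes for C362A against wildtype. The sign was not particular to this pair, since 3 of the 10 members were positive. Muc16 was at 4.08, 9.93, 6.16, 8.16 and 10.52 CPM in C362A replicates 1 to 5 and at 14.7, 10.6, 7.98, 6.90 and 9.14 CPM in wildtype. In knockout it was at 8.62, 8.81, 9.84, 7.95 and 11.5 CPM. C362A replicate 1 was the lowest of the 15 libraries and wildtype replicate 1 the highest, and the other libraries of all 3 genotypes lay among each other. The log2 fold change for C362A against wildtype was −0.34 (SE 0.23, interval −0.84 to 0.15, edgeR adjusted p = 0.444). It was −0.18 without C362A replicate 1 and −0.16 without wildtype replicate 1. Msln averaged 20.3 ± 3.47 CPM in wildtype, 18.4 ± 2.89 CPM in knockout and 17.5 ± 5.16 CPM in C362A, with a log2 fold change of −0.21 (SE 0.18, interval −0.58 to 0.16) for C362A against wildtype. Its highest library, at 25.65 CPM, and its lowest, at 11.6 CPM, were C362A replicates 5 and 4, without which the value was −0.39 and −0.09.

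The transcription factor genes Bnc1 and Wt1 had wide intervals. Bnc1 was at 3.46, 7.33, 4.66, 4.11 and 6.68 CPM in C362A replicates 1 to 5, at 4.80, 5.93, 4.59, 5.24 and 7.13 CPM in knockout and at 10.4, 7.35, 4.55, 5.10 and 5.70 CPM in wildtype. Wildtype replicate 1 was again the highest library and C362A replicate 1 the lowest, and the groups overlapped. The log2 fold change was −0.33 (SE 0.24, interval −0.83 to 0.16, edgeR adjusted p = 0.46) for C362A against wildtype. Without wildtype replicate 1 it was −0.11, and the value for knockout against wildtype went from −0.26 to −0.04.

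Wt1 was at 4.05, 11.1, 8.30, 7.15 and 9.83 CPM in C362A replicates 1 to 5. In wildtype it was at 19.3, 9.79, 4.08, 6.18 and 7.09 CPM, and in knockout at 6.52, 6.56, 4.88, 5.95 and 25.7 CPM. Knockout replicate 5 and wildtype replicate 1 stood above all others, and the remaining 13 libraries ran together from 4.05 to 11.1 CPM. The coefficient of variation of Wt1 over the 15 libraries was 65.3%, higher than that of 98.9% of the 3511 genes within 2-fold of its level, whose median was 14.4%. For C362A against wildtype the log2 fold change was −0.20 (SE 0.51, interval −1.30 to 0.90). It turned to 0.25 without wildtype replicate 1.

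The library with the highest Wt1, knockout replicate 5, also held transcripts of the kidney, an organ whose podocytes make Wt1. Nphs1, which encodes the podocyte protein nephrin, had 156 counts in that library, and Umod, a gene of the kidney tubule, had 78. Umod had 0 counts in the other 14 libraries, and Nphs1 was at most at 0.0935 CPM in them. Upk3a, a uroplakin of the urinary tract, was also highest in that library, at 2.99 CPM against a median of 0.424 CPM. Over 9 kidney and gonad genes the summed level was 4.06 to 10.8 CPM in knockout, 4.71 to 6.61 CPM in wildtype and 3.77 to 5.52 CPM in C362A. The part of these genes' tissue in the Wt1 value was not tested. Without knockout replicate 5, the log2 fold change of Wt1 for knockout against wildtype went from 0.10 to −0.64, and that for C362A against knockout from −0.30 to 0.44. Wildtype replicate 1, the other library with high Wt1, had 0 counts of Nphs1 and of Umod. Of the 3 kidney and gonad genes tested, 1 was highest in that library. It was Amhr2, at 0.81 CPM against a median of 0.249 CPM.

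**Figure D2:**
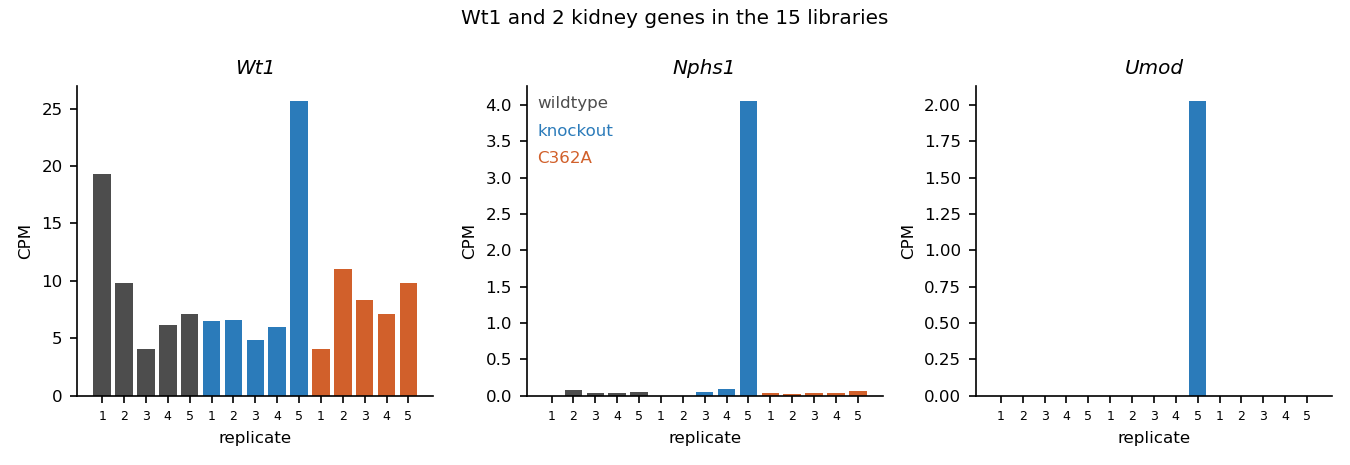
Level in CPM (linear axes from 0) of Wt1, the podocyte gene Nphs1 and the tubule gene Umod in each of the 15 libraries, 1 bar per library, coloured by genotype. The bar of knockout replicate 5 is the highest in all 3 panels, while wildtype replicate 1 is high for Wt1 alone.

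Lrrn4 and Rspo1 lay close together in the 3 genotypes. Lrrn4 averaged 13.9 ± 3.17 CPM in wildtype, 14.8 ± 2.90 CPM in knockout and 14.1 ± 2.71 CPM in C362A, with a log2 fold change of 0.02 (SE 0.17, interval −0.33 to 0.38) for C362A against wildtype. Rspo1 averaged 10.1 ± 3.04 CPM in wildtype, 9.23 ± 1.07 CPM in knockout and 9.39 ± 1.68 CPM in C362A, with −0.11 (SE 0.17, interval −0.47 to 0.25) for C362A against wildtype. Without wildtype replicate 1 the log2 fold change of Rspo1 turned to 0.09 for C362A and 0.06 for knockout. Wildtype replicate 1 was the highest library of Rspo1, at 15.3 CPM, against at most 10.6 CPM in the other 14.

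Aldh1a2 had the smallest p of the 10 for C362A against wildtype, with a positive fold change. It was at 116, 84.2, 91.2, 84.85 and 55.8 CPM in C362A replicates 1 to 5, at 82.9, 78.4, 59.4, 55.8 and 73.2 CPM in wildtype and at 69.6, 70.6, 71.0, 77.6 and 87.4 CPM in knockout. Of the C362A libraries 4 lay above every wildtype library, and replicate 5 lay at the bottom of the wildtype range. The log2 fold change for C362A against wildtype was 0.31 (SE 0.15, interval −0.02 to 0.63), an unadjusted edgeR p of 0.0637 and an adjusted p of 0.331. Without C362A replicate 5 it was 0.43 (SE 0.12) with an edgeR adjusted p of 0.0401, the 1 setting in which a member passed. That fit called 1807 of 18510 genes tested, against 15 of 18370 with all libraries. Leaving out any other library called 7 to 16 genes in this comparison. C362A replicate 5 was the library least like its group, with a chi-square of 48.2 to 104 per gene against the other C362A libraries. Calls without it, here and below, depend on removing that library and are no separate support. The gene lists below were looked at in no other fit with 1 library left out. Sample ID numbers in the labels form 2 consecutive runs, whose meaning they do not give. In these runs the difference in mean log2 CPM of Aldh1a2 between C362A and wildtype was −0.03 (2 libraries against 2) and 0.50 (3 against 3).

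Krt19 did not differ detectably either. It was at 667, 483, 592, 555 and 492 CPM in C362A replicates 1 to 5, at 512, 596, 623, 621 and 538 CPM in wildtype and at 544, 511, 570, 568.1 and 438 CPM in knockout. The groups overlapped, with knockout replicate 5 the lowest library. The log2 fold change was −0.05 (SE 0.10, interval −0.26 to 0.16) for C362A against wildtype.

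**Figure D3:**
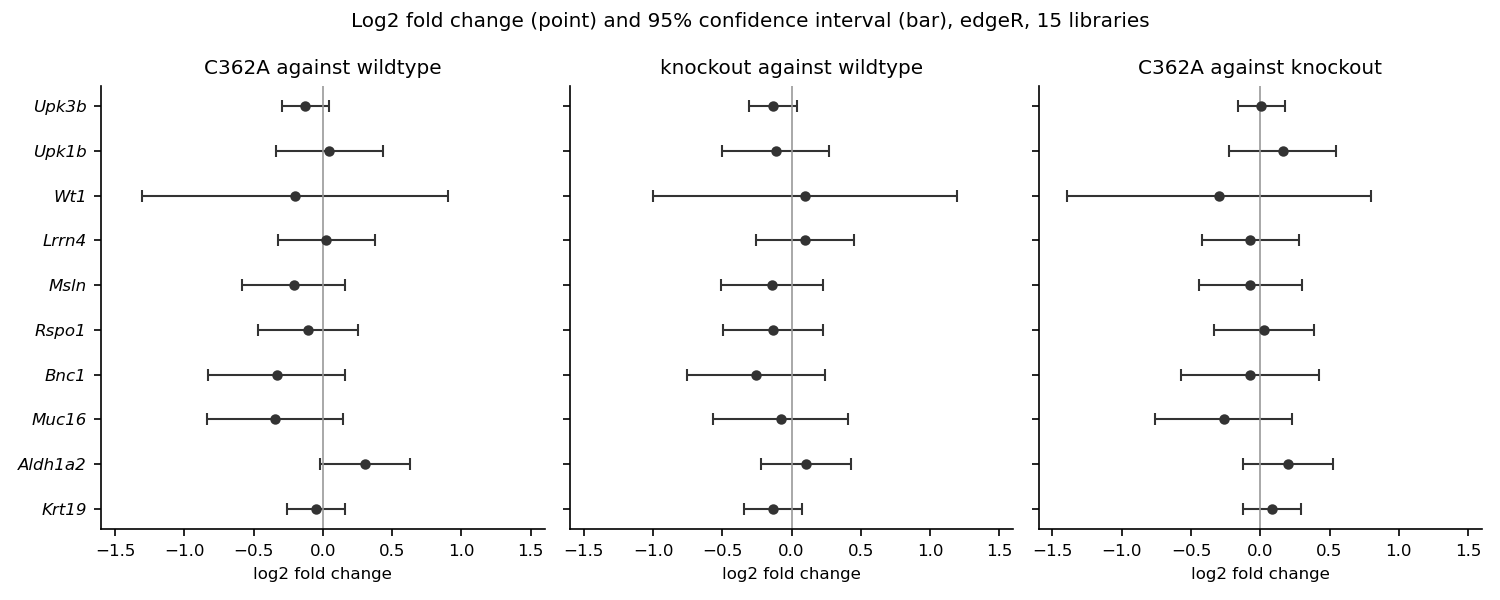
Log2 fold change (points) with 95% confidence interval (bars) of the 10 mesothelium genes in the 3 comparisons, from the edgeR fit of all 15 libraries. Each of the 30 intervals crosses 0, and the widest are those of Wt1, from −1.40 to 1.19 over the 3 panels.

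Loss of Casp8 gave no detectable difference in these genes. For knockout against wildtype 0 of 10 members passed in edgeR, where 0.0381% of all genes were called. None had an unadjusted p under 0.05, against 2.43% of all genes, and DESeq2 and limma-voom called 0 of 10. The median log2 fold change was −0.12 with 3 of 10 positive, against 0.00 (−0.005) over all genes. Upk3b had −0.13 (SE 0.08, interval −0.30 to 0.04), Krt19 −0.14 (SE 0.10, interval −0.34 to 0.07) and Bnc1 −0.26 (SE 0.23, interval −0.75 to 0.24). This comparison and that of C362A with wildtype share the 5 wildtype libraries, among them replicate 1.

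The comparison of C362A with knockout sets the inactive protein against its absence. By edgeR 0 of 10 members passed, where 0.0109% of all genes were called, and 0 of 10 had an unadjusted p under 0.05, against 13.9% of all genes. DESeq2 and limma-voom also called 0 of 10. The median log2 fold change was −0.03 with 5 of 10 positive, against 0.01 over all genes. Muc16 had −0.26 (SE 0.23, interval −0.76 to 0.23), Aldh1a2 0.20 (SE 0.15, interval −0.12 to 0.53) and Upk3b 0.01 (SE 0.08, interval −0.16 to 0.18). A p that misses the threshold does not show equal levels. Over the 3 comparisons the Upk3b intervals lay between −0.30 and 0.18, while those of Wt1 reached from −1.40 to 1.19.

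Over all 15 libraries, most of the members, but not Aldh1a2 or Krt19, tended to be high or low in the same ones. Among the 9 members other than Krt19, wildtype replicate 1 was the highest library for 5 (Upk3b, Upk1b, Rspo1, Bnc1 and Muc16), and it was in the top 3 for 7. C362A replicate 4, a library with squamous and spleen genes, was the lowest for 4 of the 9 and C362A replicate 1 for 3, and wildtype replicate 4 for the other two. Knockout replicate 5 was the highest for Wt1 and Lrrn4. Aldh1a2 and Msln were highest in C362A replicates 1 and 5. Of the 9 members, 7 were thus lowest in C362A replicate 1 or 4, a count for which the share over all genes was not computed. Aldh1a2 was nearly equal in wildtype replicate 4, at 55.76 CPM, and C362A replicate 5, at 55.77 CPM.

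Correlations of log2 CPM were computed over the 15 libraries for all 45 pairs of members, with permutation p-values adjusted by Benjamini-Hochberg over the 45. Of these, 20 passed by Pearson's r, 16 positive and 4 negative, and 16 passed by both r and Spearman's rho. The share of pairs of other genes that would pass was not computed. The counts therefore do not show a relation particular to mesothelium genes. The median r was 0.37 over all 45 pairs, of which 34 were positive, and 0.52 over the 36 pairs without Krt19, of which 32 were positive. Among the 8 members without Krt19 and Aldh1a2, a subset taken after these values were known, all 28 pairs were positive, with a median r of 0.63, and 0.64 after genotype means were subtracted. The median was 0.39 without the 2 libraries farthest from the median of each pair's first gene. It was 0.70 in the ID run of 6 libraries and 0.32 in the run of 9, and 0.49 without knockout replicate 5 and wildtype replicate 1. Of the 16 positive pairs that passed, all 16 kept their sign in both runs. Without the 2 farthest libraries, only 5 of 16 kept an unadjusted permutation p under 0.05. Leaving them out also narrows the range and lowers the number of libraries. Whether the other pairs rested on those 2 libraries is thus not settled by this count.

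Bnc1 and Muc16, whose promoters are shown above, were the closest pair. Their r was 0.85 (rho 0.80, adjusted permutation p = 0.00382 and 0.00945), with 0.95 and 0.73 within the ID runs and 0.70 without the 2 farthest libraries (permutation p = 0.00813). Wt1 and Bnc1 had an r of 0.82 (rho 0.78, adjusted permutation p = 0.00382 and 0.00945) and 0.79 without knockout replicate 5 and wildtype replicate 1. Without knockout replicate 5 alone, the library that held kidney genes, the r of Wt1 and Bnc1 was 0.88. Lrrn4 and Rspo1 had 0.77 (rho 0.78, adjusted permutation p = 0.00522 and 0.00945) and 0.78 without the same 2 libraries. Wt1 and Lrrn4 had 0.77 over 15 libraries but 0.52 without those 2 and 0.03 within the run of 9.

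Msln was loosely tied to the rest. Its r with Upk3b was 0.65 (rho 0.55, adjusted permutation p = 0.0263 and 0.0891), and this was its 1 pair that passed by r. With Muc16, whose protein binds mesothelin, its r was 0.43 (rho 0.51, adjusted permutation p = 0.186 and 0.12). Aldh1a2 passed with 0 of the 9 other members by either coefficient, and its r ran from −0.48 with Msln to 0.28 with Rspo1. The median r of its 9 pairs was 0.50 in the run of 6 and −0.20 in the run of 9. Krt19 ran against 4 members, with an r of −0.78 with Wt1, −0.72 with Muc16, −0.66 with Bnc1 and −0.59 with Lrrn4 (adjusted permutation p = 0.00522, 0.0129, 0.0253 and 0.0443). Their rho was −0.74, −0.69, −0.64 and −0.50 (adjusted permutation p = 0.0157, 0.0252, 0.0359 and 0.127). The r with Lrrn4 was −0.37 without the 2 farthest libraries and 0.28 within the run of 9, so it did not hold there. Over the 9 pairs with Krt19 the median r was −0.52 in the run of 6 and 0.28 in the run of 9.

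**Figure D4:**
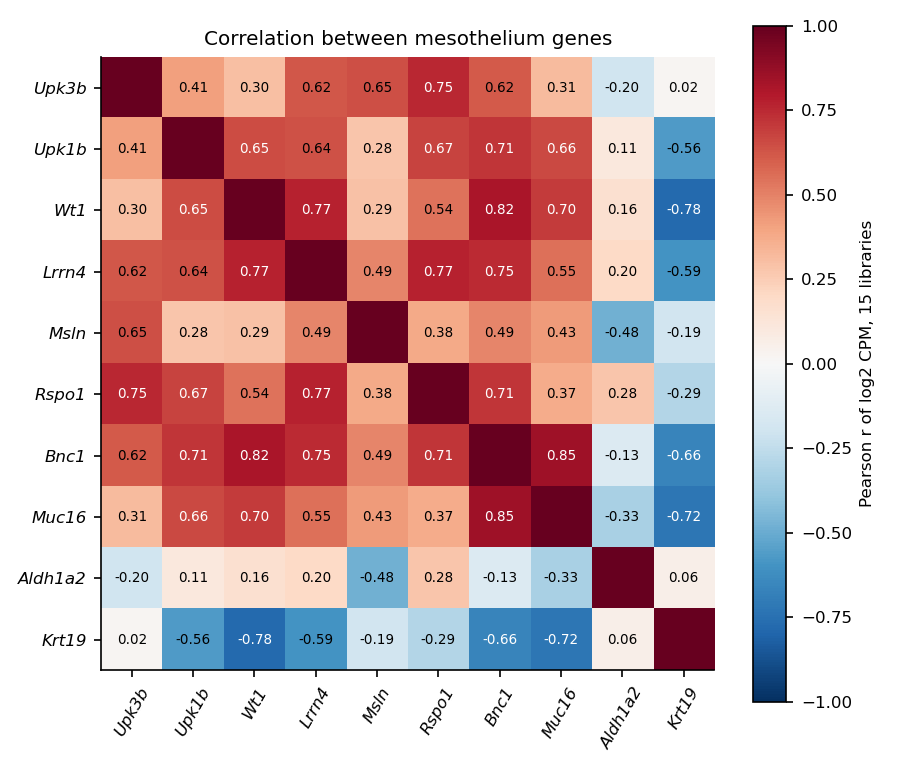
Pearson's r between the log2 CPM of each pair of mesothelium genes over the 15 libraries, from blue (−1) over white (0) to red (1), with the value in each cell. The first 8 genes form a block of positive values from 0.28 to 0.85, Aldh1a2 is near 0 with most of them, and Krt19 is negative with several.

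Each member was also set against the mean log2 CPM of fixed lists for epithelium, fibroblasts, smooth muscle and endothelium, 40 relations in all. Aldh1a2 followed the 8 fibroblast genes with an r of 0.81 (rho 0.87, adjusted permutation p = 0.0032 and 0.0024), 0.89 and 0.83 within the ID runs and 0.81 without the 2 farthest libraries. It ran against the 10 epithelium genes (r = −0.74, rho −0.72, adjusted permutation p = 0.0142 and 0.0292) and with the 5 endothelium genes (r = 0.68, rho 0.76, adjusted permutation p = 0.039 and 0.0199). The fibroblast list itself had a median log2 fold change of 0.24 for C362A against wildtype, with 8 of 8 positive. Of these, 4 had an unadjusted p under 0.05, against 15.9% of all genes, and 0 were called by edgeR, DESeq2 or limma-voom. Without C362A replicate 5, edgeR called Foxf1 and Col3a1 of this list, with log2 fold changes of 0.25 and 0.42 over all libraries. That fit called 1807 of 18510 genes. The part of the fibroblast list in the Aldh1a2 difference was not tested.

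Bnc1 and Muc16 ran against the 8 smooth muscle genes. Their r was −0.81 and −0.81 (rho −0.73 and −0.76, adjusted permutation p = 0.0032 for both by r and 0.0292 and 0.0199 by rho). Within the ID runs it was −0.82 and −0.73 for Bnc1, and −0.94 and −0.68 for Muc16. Without the 2 farthest libraries it was −0.62 for both. Upk3b, Upk1b, Wt1, Lrrn4, Msln and Rspo1 also had a negative r with these genes, from −0.36 for Rspo1 to −0.63 for Wt1. None of these passed (adjusted permutation p = 0.0748 for Wt1). The negative sign was thus not particular to Bnc1 and Muc16. Krt19 and Aldh1a2 had a positive r, 0.53 and 0.46, which did not pass either. Smooth muscle genes had a median log2 fold change of 0.23 for C362A against wildtype, with 8 of 8 positive. Of these, 5 had an unadjusted p under 0.05, against 15.9% of all genes, and 0 were called by the same 3 tools. Without C362A replicate 5, edgeR called Acta2, Lmod1 and Mylk, among 1807 of 18510 genes. The part of the smooth muscle genes in the negative fold changes of Bnc1 and Muc16 was not tested.

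**Figure D5:**
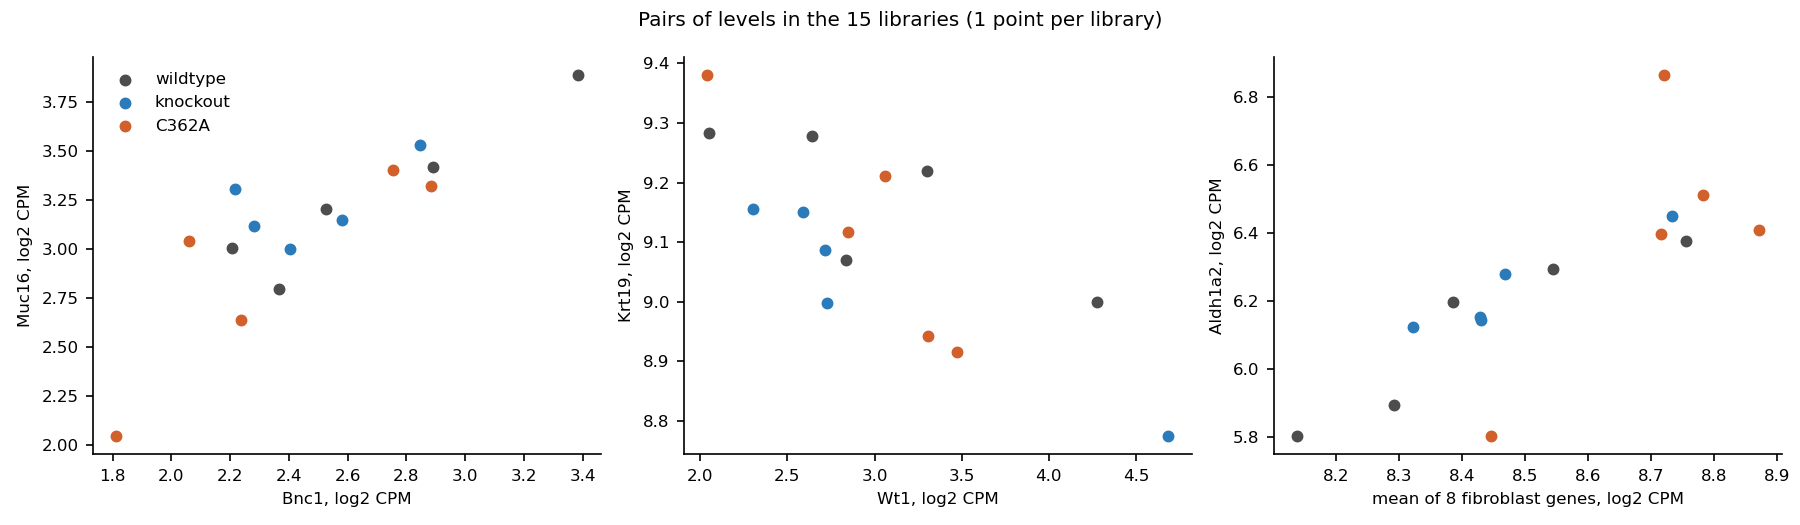
Log2 CPM in the 15 libraries, 1 point per library coloured by genotype, for Bnc1 against Muc16 (left), Wt1 against Krt19 (middle) and the mean of 8 fibroblast genes against Aldh1a2 (right). The r is 0.85, −0.78 and 0.81, and wildtype replicate 1 is the top right point of the left panel. In the right panel 4 of the 5 C362A libraries lie at the upper end, beside knockout replicate 5 and wildtype replicate 1. The r of that panel is 0.77 after genotype means are subtracted.

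Outside the list, the 5 genes whose log2 CPM was most like the mean standardised level of the 9 members without Krt19 were ranked among 14433 genes over the 15 libraries. They were Fbln2, a matrix protein gene (r = 0.94), Kcnab1, a potassium channel subunit gene (0.93), Gnasas1 (0.92), Clec11a, a secreted growth factor gene (0.91), and Slit2, a guidance ligand gene (0.90). Gnasas1 is an antisense transcript, and reads from its opposite strand cannot be told apart here. For Krt19 the closest were Gfus (0.92), Gm19774 (0.91), Blvra (0.91), Atp5j (0.90) and Neurl3 (0.89). They were picked as the highest values, so no test applies.

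Other genes known from mesothelium were not called either. Of 19 listed, 18 could be tested, and 0 were called by edgeR, DESeq2 or limma-voom in any of the 3 comparisons. For C362A against wildtype 2 were higher and 1 was lower at an unadjusted p under 0.05, which is 16.7% of the 18 against 15.9% of all genes, with a median log2 fold change of −0.06. The smallest p belonged to Cldn15, a claudin gene also made by gut epithelium (45.2 ± 6.36 against 62.5 ± 17.0 CPM, −0.47, SE 0.14), and Tcf21, a mesenchymal transcription factor gene (85.5 ± 16.9 against 68.7 ± 8.84 CPM, 0.32, SE 0.12), both at an edgeR adjusted p of 0.285. Wildtype replicate 1 was the highest library for 6 of the 18 (Gpm6a, Nkain4, Igfbp6, Prg4, Efemp1 and Pdpn), for 5 of the 10 members and for 7.19% of all genes tested. It was also the highest for 6 of 17 retinoic acid genes and 2 of 8 fibroblast genes. Without C362A replicate 5, edgeR called Tcf21 higher and Cldn15 and the growth factor gene Fgf9 lower than in wildtype, and Tcf21 and Fgf9 against knockout. In that fit 1807 of 18510 genes were called against wildtype and 805 against knockout. Calb2, the calretinin gene, reached at most 4 counts in a library and was not tested.

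Among the relatives of the members, none was called by edgeR with all libraries. Of the 6 uroplakin genes, Upk1a had −0.34 (SE 0.31) for C362A against wildtype. Upk3bl had 1.91 (SE 0.88), from 7.93 CPM in C362A replicate 4, the library with squamous keratins, against at most 0.746 CPM in all others. Of 8 R-spondin pathway genes tested, Rspo2 had 0.40 (SE 0.16) and Rspo3 0.29 (SE 0.15), where Rspo1 had −0.11. These 2 ligand genes had edgeR adjusted p-values of 0.286 and 0.345. The 17 retinoic acid genes tested had a median of −0.01 with 8 positive, and 0 had an unadjusted p under 0.05. Rdh10, which makes the retinaldehyde that Aldh1a2 oxidises, was at 59.3 ± 9.41 CPM in C362A and 51.9 ± 4.03 CPM in wildtype (0.19, SE 0.10). Cyp26b1, which degrades retinoic acid, had 0.24 (SE 0.14). Without C362A replicate 5, edgeR called Rdh10 with Aldh1a2 against wildtype, among 1807 of 18510 genes. For C362A against knockout, Cyp26b1 had a log2 fold change of 0.58 (SE 0.14, edgeR adjusted p = 0.317). It was called by DESeq2 and by edgeR without C362A replicate 5, the latter among 805 of 18510 genes.

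In the lists of other cells, no gene was called by edgeR, DESeq2 or limma-voom with all libraries in any comparison. Without C362A replicate 5, edgeR also called Pecam1 and Cdh5 of the endothelium list and Krt5 of the squamous list for C362A against wildtype. They were among 1807 of 18510 genes called in that fit. For C362A against wildtype the smallest p in the epithelium list belonged to Cdhr5 (−0.66) and Vil1 (−0.27), genes of the brush border, and that list had 0 of 10 positive. They were Pecam1 (0.27) and Kdr (0.24) for endothelium, Lmod1 (0.23) and Myh11 (0.26) for smooth muscle, and Star (−0.53) and Amhr2 (−0.81) for kidney and gonad. Serpina1c (0.27) and Ins2 (0.45) led the pancreas and liver list, and Nkx2-3 (0.17) was the 1 spleen gene tested. Krt13 (5.55, SE 1.70) and Krt5 (4.09, SE 1.27) led the squamous and stomach list, from C362A replicate 4. At an unadjusted p under 0.05, the lists held 2 of 10 epithelium, 4 of 5 endothelium, 6 of 7 squamous and stomach, 1 of 3 kidney and gonad, 0 of 7 pancreas and liver and 0 of 1 spleen genes. Over all genes tested the share in this comparison was 15.9%.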

How the data were processed

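The deposited files held 2 units for each of 15 libraries. Counts are uniquely aligned reads per gene, per the file headers, and the authors' RPKM values carry a size factor for the library, per the file headers. Reads were single-end, from a kit that does not mark strand, per the labels' protocols. The aligner was GSNAP and the genome GRCm38, per the submitters' processing notes. Versions, settings and gene models are not given in the sources used. IDs were named from RefSeq (31049), then GENCODE (78), and 5401 stayed unnamed but were tested.

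Counts of all 15 libraries entered 1 edgeR quasi-likelihood fit (edgeR 4.0.16, R 4.3.3) with a mean per genotype, TMM factors, robust estimates and filterByExpr (minimum count 10, minimum total 15). Genes with a Benjamini-Hochberg adjusted p under 0.05 over 18370 genes were called. The script was tested on simulated data. Log2 CPM used a prior count of 2, and correlations used 100000 two-sided permutations. Within a genotype, pairs of libraries had a chi-square of 10.7 to 139 per gene, above sampling noise, and each was counted as 1 sample. Labels give no replicate numbers, so numbers follow accession order and pair nothing. Alternatives were other scalings, filters and thresholds, DESeq2 1.42.0, limma 3.58.1 (voom, and log2(RPKM + 1)), fits of 2 genotypes, a block for the run of ID numbers and each library left out.

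The members and gene lists were chosen with earlier results of these data known. Named were all members, the 2 genes with the smallest p of each other list for C362A against wildtype where none was called, and the 5 genes most like the members and the 5 most like Krt19. Names beyond these were chosen after their values were seen. Promoter sequences came from RefSeq (GRCm38.p6). One kidney gene is not reported here.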

Additional observations from a re-analysis of the deposited data

Results flagged for a closer look

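Of 30 sets of 5 libraries (10 mesothelium genes in 3 genotypes), 1 had a library far from the others. Wt1 in knockout replicate 5 was at 25.7 CPM, while the other 4 knockout libraries lay between 4.88 and 6.56 CPM. The gap to the nearest library was 0.92 of the whole range, above Dixon's critical value of 0.71 for 5 samples. Chance alone marks about 1 in 20 such sets. The same library held the kidney genes Nphs1 and Umod at 4.06 and 2.03 CPM, and their part in the Wt1 value was not tested.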

How the results depend on the processing

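The count of mesothelium genes called was 0 of 10 in each comparison under all alternatives but 1. With 1 library left out at a time it was 0 to 1 for C362A against wildtype and 0 for the other comparisons. The 1 call was Aldh1a2 without C362A replicate 5 (log2 fold change 0.43, edgeR adjusted p = 0.0401). The number of all genes called moved far more: from 15 for C362A against wildtype it ran from 1 to 1807, from 7 for knockout against wildtype from 1 to 13, and from 2 for C362A against knockout from 2 to 805. The highest counts of 1807 and 805 came without C362A replicate 5, while DESeq2 called 55, 13 and 31. The filter of at least 5 CPM in 5 libraries called 1, 2 and 2. Leaving out the 3 libraries with kidney, spleen or squamous genes, an alternative chosen after seeing the data, called 4, 1 and 2 genes and 0 members. Over 26 alternatives the log2 fold change of Wt1 ran from −0.64 to 0.55 for knockout against wildtype and took the other sign in 7. The ID run block changed no member's call. No paired analysis was possible because the labels give no replicate numbers. Members had at least 111 counts per library. Counting error and spread between libraries were not separated.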
